A study of Mus musculus with 2 samples.

Results

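Genes of T cell co-stimulation and its checkpoints were examined in the mouse spleen, chosen by name from the gene tables and not by their levels. They are the receptors Cd28, Ctla4, Icos, Pdcd1, Btla, Lag3 and Tigit and the ligands Cd274, Cd80 and Cd86, which makes 10 of 43346 genes with an Ensembl identifier. All 10 were found, and 9 of them passed the filter on low values that left 12467 genes (a mean of at least 1 TPM and at least 50 counts over both libraries). TPM is a level corrected for transcript length that sums to the same total in each library. The data are polyA RNA-seq of spleen tissue from 1 C57BL/6J male, an adult of 10 weeks. The labels name no treatment and no allele for this animal. Technical replicate 2, made in 2015, is set here against technical replicate 1, and both carry the label of the same biological replicate and a size range of 350 to 450 (no unit given).

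A T cell that meets antigen needs a further signal through CD28, which binds CD80 and CD86 on dendritic cells, macrophages and activated B cells. CTLA4 competes for these same ligands and restrains the response, while ICOS, a relative of CD28, supports helper T cells through its own ligand on B cells. PD-1 (Pdcd1), BTLA, LAG3 and TIGIT are inhibitory receptors of lymphocytes. PD-L1 (Cd274) is a ligand of PD-1. The spleen holds the T cells, B cells and antigen-presenting cells on both sides of these contacts.

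The replicate 2 library was much shallower, with 3806385 counts on genes, against 27528810 in replicate 1, a depth ratio of 7.23. Its composition also stood apart, since replicate 2 had 442738 TPM in the 8 erythroid markers, against 43065 TPM in replicate 1. Because TPM has a fixed total, every other level in TPM depends on these transcripts. Ratios are therefore given from counts after TMM scaling, which puts the median log2 ratio of all tested genes at -0.27, against -1.53 with total counts and -2.70 with deposited TPM. No difference could be checked against a second library of either kind, no p-value is given, and intervals cover counting error only. Whole spleen RNA cannot tell fewer cells of a type apart from less RNA per cell.

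The sequences shown first are coding starts of the genes with the lowest ratios, since GC content ran with the ratio between the libraries. The first 120 coding bases are shown for Btla, Cd28 and Cd274, the 3 with the lowest ratios among members with at least 5 counts in each library. Capitals mark the start codon. All are GENCODE release M21 transcripts on GRCm38 (mm10), spliced, with the range from first to last base.
Btla-202 (chr16:45224353-45239054, plus strand): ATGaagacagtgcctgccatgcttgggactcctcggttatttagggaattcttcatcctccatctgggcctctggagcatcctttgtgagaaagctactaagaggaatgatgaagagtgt
Cd28-201 (chr1:60746474-60763043, plus strand): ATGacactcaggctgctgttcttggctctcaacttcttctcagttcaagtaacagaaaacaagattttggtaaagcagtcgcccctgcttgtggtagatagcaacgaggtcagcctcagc
Cd274-201 (chr19:29372468-29373625, plus strand): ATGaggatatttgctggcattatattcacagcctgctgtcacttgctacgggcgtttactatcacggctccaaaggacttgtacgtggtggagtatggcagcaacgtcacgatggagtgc
These windows were 47.5% G or C for Btla, 47.5% for Cd28 and 50% for Cd274. The whole transcripts were lower, at 40.7% for Btla, 41.2% for Cd28 and 44.9% for Cd274.

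In replicate 2, 5 genes reached 1 TPM, namely Btla, Lag3, Cd86, Cd80 and Icos, while in replicate 1 all 10 did. Their summed level was 21.5 TPM in replicate 2 and 514.9 TPM in replicate 1, a level 24 times higher in replicate 1. For the 7 receptors the sum was 15.5 TPM in replicate 2, against 368.1 TPM in replicate 1. For the 3 ligands it was 5.95 TPM in replicate 2, against 146.8 TPM in replicate 1. The summed counts were 318 in replicate 2 and 27906 in replicate 1, a log2 ratio of -2.34 after TMM scaling (95% interval -2.50 to -2.18). Each gene's count was a whole number with a posterior standard deviation of 0 in both libraries, so no read of these genes was divided with another gene.

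**Figure D1:**
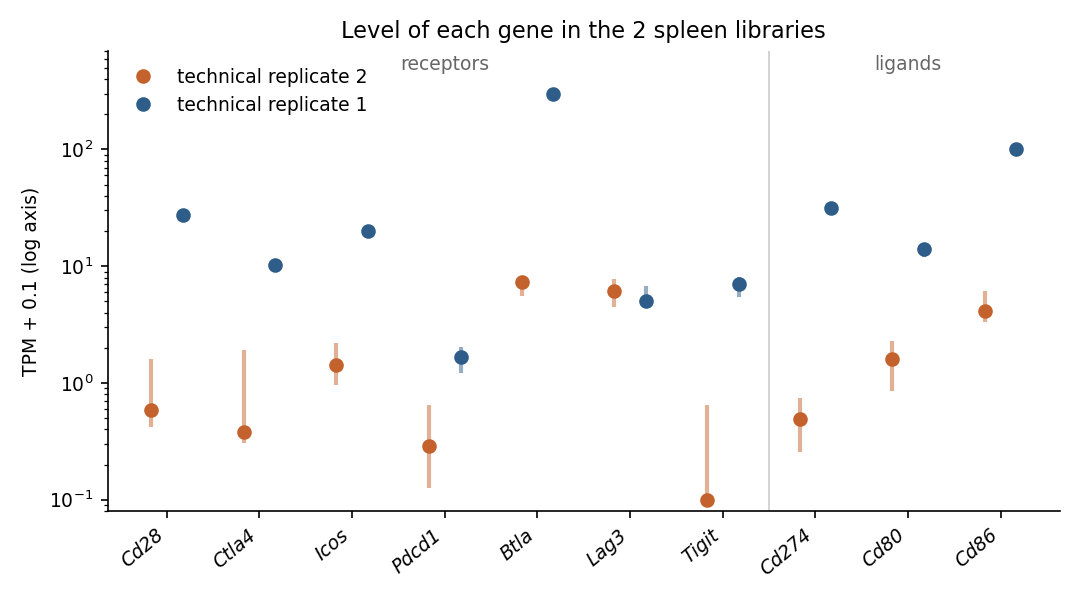
TPM of the 7 receptors and 3 ligands in technical replicate 2 (orange) and technical replicate 1 (blue), with 0.1 added and a log axis. Points are the deposited TPM, bars the deposited posterior interval, whose level is not stated. Lag3 is the gene whose points lie together, at 6.02 and 4.96 TPM in replicates 2 and 1, and Tigit is listed at 0 in replicate 2.

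In replicate 2, 7 of the 9 tested members fell and 1 rose, with a 95% counting interval wholly beyond 1.5-fold. Over all tested genes 32.6% were called lower and 28.0% higher by that rule. The median log2 ratio of the 9 was -2.10, with the 0 counts of Tigit valued at 3, against -0.27 for all tested genes. Cd28, Ctla4, Tigit and Cd274 were below 1 TPM in replicate 2 and passed the filter through their level in replicate 1, so this count and median describe the genes and are not support for a difference. Under total counts 8 of the 9 were lower, beside 58.5% of all tested genes.

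**Figure D2:**
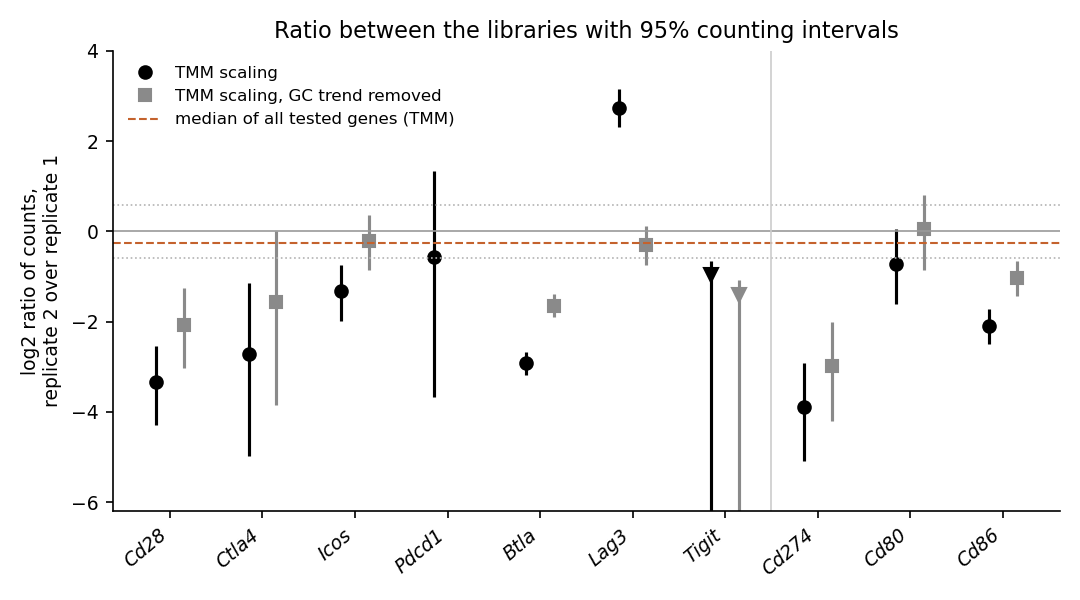
Log2 ratio of counts, technical replicate 2 over technical replicate 1, for each gene under TMM scaling (black) and with the GC trend over all tested genes removed (grey), with 95% counting intervals. The triangle of Tigit marks its ratio with 0 counts valued at 3, the dotted lines 1.5-fold and the dashed line the median of all tested genes at -0.27. Lag3 lies at 2.73 before and -0.30 after removal of the trend, while Cd274 stays lowest at -3.89 and -2.99.

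Cd28, the main co-stimulatory receptor of T cells, had 12 counts (0.49 TPM) in replicate 2 and 2119 counts (27.2 TPM) in replicate 1. At its replicate 1 share, 293 counts would stand in replicate 2 by total counts and 122.1 after TMM scaling. It fell by 3.35 on the log2 scale after TMM scaling (-4.30 to -2.54). Ctla4, the inhibitory receptor for the same ligands, had 3 counts (0.28 TPM) in replicate 2 and 340 counts (10.2 TPM) in replicate 1, a log2 ratio of -2.71 (-4.99 to -1.15). Its fall rests on the 3 counts of replicate 2, where its replicate 1 share would give 47.0 by total counts and 19.6 after TMM scaling.

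Icos, the inducible co-stimulator, had 24 counts (1.32 TPM) in replicate 2, against 1046 counts (20.0 TPM) in replicate 1. It fell less than Cd28, at -1.33 (-1.98 to -0.75), and the intervals of the pair do not overlap. Within the pair, Icos held 66.7% of the counts in replicate 2 (Clopper-Pearson 95% interval 49.0 to 81.4) and 33.0% in replicate 1 (31.4 to 34.7). That share needs no scaling between libraries. In replicate 2 its interval reaches just below an even split, so Icos was not shown to exceed Cd28 there, while in replicate 1 Icos was the lower of the pair.

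These 3 genes are neighbours on the plus strand of chromosome 1. Cd28 (chr1:60716800-60773359), Ctla4 (chr1:60887000-60915832) and Icos (chr1:60977927-61000320) together span 283.5 kb, with 113.6 kb between Cd28 and Ctla4 and 62.1 kb between Ctla4 and Icos. Shared position did not go with a shared ratio, given the separate intervals of Cd28 and Icos.

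Btla, an inhibitory receptor of B and T cells (chr16:45224315-45257670, plus strand), was the highest member in both libraries. It had 132 counts (7.22 TPM) in replicate 2 and 17373 counts (297.3 TPM) in replicate 1, and fell by 2.92 on the log2 scale (-3.18 to -2.68). Its rank by TPM was 4105 in replicate 2 and 354 in replicate 1 among all Ensembl genes. It had the narrowest interval of the 10, and its ratio lay at percentile 9.71 of all tested genes.

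Lag3, an inhibitory receptor that binds MHC class II (chr6:124904361-124911705, minus strand), had 66 counts (6.02 TPM) in replicate 2 and 172 counts (4.96 TPM) in replicate 1. It rose 6.66-fold after TMM scaling, a log2 ratio of 2.73 (2.30 to 3.15), and was also called higher under total counts at 1.47. As a ratio of deposited TPM it was 0.28 and not called. At its replicate 1 share it would have had 23.8 counts by total counts and 9.9 after TMM scaling. It exceeded both, where the others fell short. Its ratio lay at percentile 89.5 of all tested genes.

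Tigit, which binds PVR and nectins and inhibits T and NK cells (chr16:43648867-43664146, minus strand), had 0 counts in replicate 2 and 102 counts (6.90 TPM) in replicate 1. Its count of 0 was valued at 3 counts, or 0.617 TPM, which sets the log2 ratio at -0.97. The 95% counting interval behind the call has no lower end, and its upper end is -0.65. Its count at the replicate 1 share would be 14.1 by total counts and 5.9 after TMM scaling. Pdcd1, which encodes PD-1 (chr1:94038305-94052553, minus strand), had 2 counts (0.19 TPM) in replicate 2 and 52 counts (1.56 TPM) in replicate 1. It did not pass the filter, at a mean of 0.875 TPM, and its log2 ratio of -0.58 has an interval of -3.67 to 1.34. Its replicate 1 share would give 7.2 counts by total counts and 3.0 after TMM scaling. Under TMM scaling a fall in Pdcd1 was therefore not detectable at this depth.

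Among the ligands, Cd86 (chr16:36603869-36666081, minus strand) had 57 counts (4.04 TPM) in replicate 2 and 4243 counts (101.6 TPM) in replicate 1, and fell by 2.10 (-2.50 to -1.72). Cd80 (chr16:38455561-38496335, plus strand) had 14 counts (1.52 TPM) in replicate 2 and 401 counts (13.9 TPM) in replicate 1, and its log2 ratio of -0.72 (-1.61 to 0.04) was not called. Both encode B7 proteins that CD28 and CTLA4 bind, and Cd86 was the higher in each library. Cd86 held 80.3% of the counts of the pair in replicate 2 (69.1 to 88.8) and 91.4% in replicate 1 (90.5 to 92.2), intervals that do not overlap.

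Cd274, which encodes PD-L1 (chr19:29367455-29388095, plus strand), had 8 counts (0.39 TPM) in replicate 2 and 2058 counts (31.3 TPM) in replicate 1. It had the lowest ratio of the 10 at -3.89 (-5.10 to -2.91). Its replicate 1 share would give 284.6 counts in replicate 2 by total counts and 118.6 after TMM scaling. The PD-L2 gene Pdcd1lg2 starts 22.8 kb further along the same strand and had 8 counts in replicate 2 and 226 in replicate 1, a ratio of -0.70 that was not called. Cd274 therefore held 50% of the counts of the 2 PD-1 ligands in replicate 2 (24.7 to 75.3) and 90.1% in replicate 1 (88.8 to 91.3). In GENCODE M21 the antisense gene AC119228.1 shares 511 exonic bases with Cd274, and whether the counting used strand is not given in the sources used here.

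The order of the levels differed between the libraries. In replicate 2 it ran from Btla over Lag3, Cd86, Cd80, Icos, Cd28, Cd274, Ctla4 and Pdcd1 to Tigit, and in replicate 1 from Btla over Cd86, Cd274, Cd28, Icos, Cd80, Ctla4, Tigit and Lag3 to Pdcd1. Spearman's rho between the orders was 0.52 over the 10 genes, given as a description. By the deposited posterior intervals most neighbours in replicate 2 could not be told apart. Btla (5.41 to 7.62 TPM), Lag3 (4.38 to 7.65) and Cd86 (3.22 to 6.00) overlapped there, as did Cd80 (0.761 to 2.19) and Icos (0.862 to 2.12). The interval of Cd28 (0.319 to 1.49) overlapped that of Icos above it and that of Cd274 (0.155 to 0.649) below it, and the rest of the order down to Tigit overlapped as well. Between Cd86 and Cd80 the intervals were separate. In replicate 1 the only neighbours whose intervals overlapped were Tigit (5.40 to 7.97) and Lag3 (4.25 to 6.68). The deposited TPM of Btla and Cd274 in replicate 1 lay above their own posterior intervals, 280 to 288 TPM and 28.7 to 31.2 TPM.

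The share of each gene in the counts of the set shows the same without any scaling. Btla held 41.5% (36 to 47.1) of the set in replicate 2 and 62.3% (61.7 to 62.8) in replicate 1. Lag3 held 20.8% (16.4 to 25.6) in replicate 2 and 0.616% (0.528 to 0.715) in replicate 1. Icos and Cd80 also held a larger share in replicate 2, at 7.55% and 4.40%, against 3.75% and 1.44% in replicate 1. Cd28 and Cd274 held a smaller one, at 3.77% and 2.52% in replicate 2, against 7.59% and 7.37% in replicate 1, and none of these 6 pairs of intervals overlaps.

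**Figure D3:**
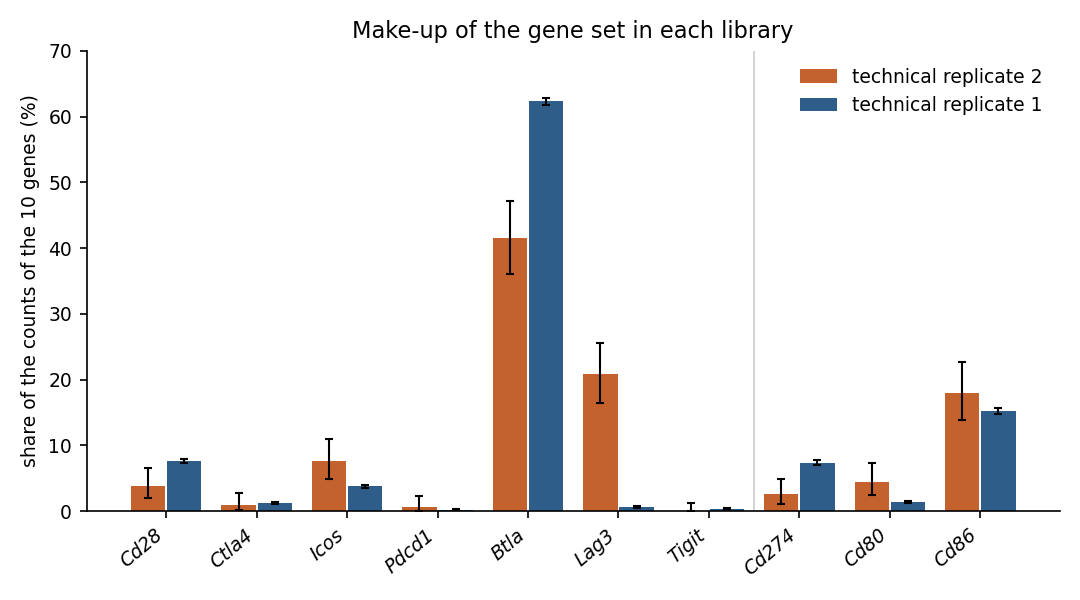
Share of each gene in the summed counts of the 10 genes in technical replicate 2 (orange, 318 counts) and technical replicate 1 (blue, 27906 counts), with exact 95% binomial intervals. Lag3 takes 20.8% of the set in replicate 2 and 0.616% in replicate 1.

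The ratio of the members ran with GC content, as it did over all tested genes. All tested members except Tigit and Lag3, 7 of 9, lay in the 3 lowest of 10 GC bins, where the share of all genes called lower was 62.5%, 53.3% and 48.8% from the lowest bin up. Lag3, at 59.9% GC, lay in the highest bin, where 73.1% of genes were called higher and the median log2 ratio was 2.54. The trend over all genes stood at 2.77 at the GC content of Lag3 and at -1.39 at that of Icos, whose own ratios were 2.73 and -1.33. Across the 9 members Spearman's rho of ratio and GC was 0.72, a description over genes of the same pair of libraries.

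Removal of the GC trend subtracted its value at each gene's GC content and added back the median of all tested genes, -0.27, so a gene on the trend stands at that median. The pair of Cd28 and Icos stayed apart after this. The intervals of Cd86 and Cd80, separate before it, overlapped, with Cd80 at 0.04 (-0.85 to 0.80). Of the 9, 5 were called lower and 0 higher, beside 30.1% of all genes lower and 2906 of 12437 higher. Cd274 was at -2.99 (-4.20 to -2.01), Cd28 at -2.07 (-3.02 to -1.26) and Btla at -1.65 (-1.91 to -1.40). Tigit, at -1.42 with its 0 counts valued at 3 (upper end -1.09), and Cd86, at -1.04 (-1.44 to -0.66), were the other 2. Cd274, Cd28 and Tigit passed the filter through their level in replicate 1, so the count of 5 is not support for a difference. Lag3 at -0.30, Icos at -0.21 and Ctla4 at -1.56 were no longer called. The GC content of a gene was weighted by transcript levels in these same libraries, so it is not fully independent of the ratio. The part of GC content in these results was not tested.

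**Figure D4:**
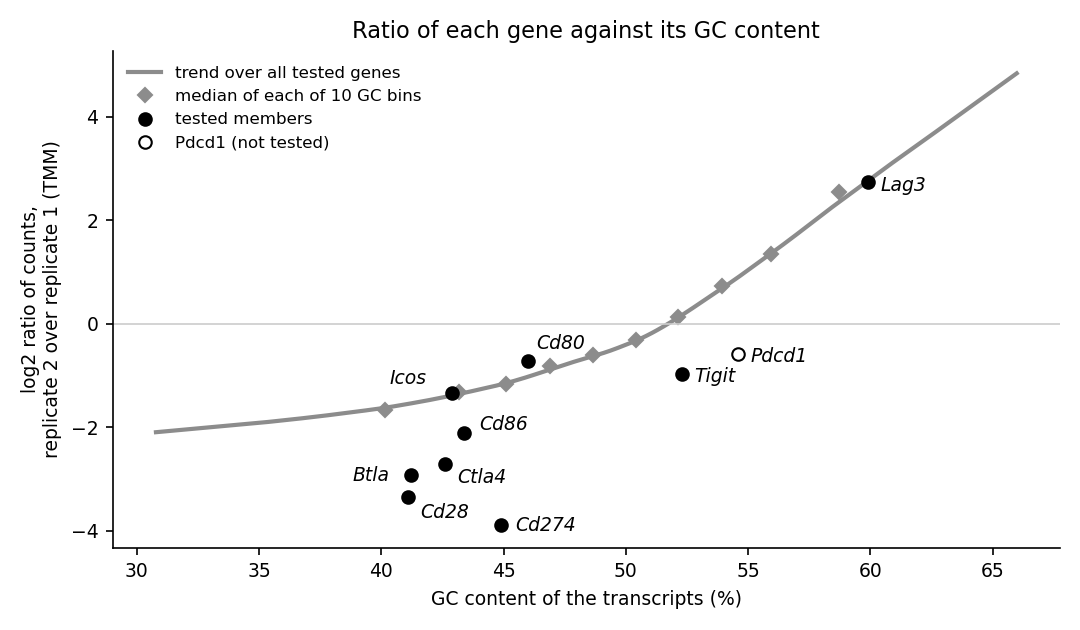
Log2 ratio of counts, technical replicate 2 over technical replicate 1 (TMM), against the GC content of each gene's transcripts. The line is the trend over all tested genes and diamonds are medians of 10 bins, drawn at the median GC of the bin. The open point is Pdcd1, which was not tested, and Tigit is drawn with its 0 counts valued at 3. Lag3, Icos and Cd80 lie near the line, while Cd274, Cd28, Btla, Ctla4, Cd86 and Tigit lie below it.

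Of the 10 genes, 6 have more than 1 transcript in the files, and IsoPct, the percent of a gene's TPM given to a transcript, was led by the same transcript in both libraries for 6 of 6. The same held for 57.2% of all 8561 genes compared. Icos was led by the long Icos-202 (100% in replicate 2 and 87.0% in replicate 1), and the shorter Icos-201 held 13.0% in replicate 1. Cd28-201 held 100% in replicate 2 and 96.4% in replicate 1, where the retained-intron transcript Cd28-203 had 29.4 counts. Cd86-201 held 100% in replicate 2 and 91.0% in replicate 1, with the rest in 3 transcripts that encode no protein. These minor forms were given counts in replicate 1 alone, the deeper library, and depth limits their detection in replicate 2, where Cd86 had 57 counts in all.

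For Ctla4 the transcript of interest is Ctla4-202, which lacks exon 3 of 4. That exon of 110 bases (chr1:60913219-60913328, GRCm38, plus strand) encodes the membrane-spanning segment, and mouse transcripts without it encode a soluble form. Capitals mark the exon, and the second line is the junction that forms without it.
Ctla4-201: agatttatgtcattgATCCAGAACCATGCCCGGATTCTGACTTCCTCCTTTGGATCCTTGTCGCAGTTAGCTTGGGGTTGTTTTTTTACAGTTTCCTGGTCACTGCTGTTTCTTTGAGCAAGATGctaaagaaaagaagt
Ctla4-202: agatttatgtcattgctaaagaaaagaagt
Ctla4-202 was given 0 of 3 counts in replicate 2 and 0 of 340 in replicate 1, and Ctla4-201 all of them. From posterior means its share was 34.2% in replicate 2 and 3.39% in replicate 1, so the value in replicate 2 rests on the estimate and not on reads.

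The 2 transcripts of Btla differ in GENCODE M21 by 3 coding bases at the start of an exon (chr16:45244153-45244155, plus strand) and in their ends. Capitals mark the 3 bases.
Btla-201: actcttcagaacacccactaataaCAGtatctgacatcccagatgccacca
Btla-202: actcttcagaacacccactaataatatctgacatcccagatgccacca
Btla-202, without them, held 78.6% of the TPM of Btla in replicate 2 and 59.2% in replicate 1. From posterior means the order turned in replicate 2, where Btla-201 had 51.8% and Btla-202 48.2%, against 41.1% and 58.9% in replicate 1. The posterior interval of Btla-201 in replicate 2 ran from 0.00 to 6.22 TPM and that of Btla-202 from 0.01 to 6.09 TPM, so the split was not resolved there. By posterior means the leading transcript was the same for 5 of 6 members, beside 50.2% of all genes. In the deposited tables Btla-201 is 3235 bases long, against 1598 in GENCODE M21, and only the later model was compared here.

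**Figure D5:**
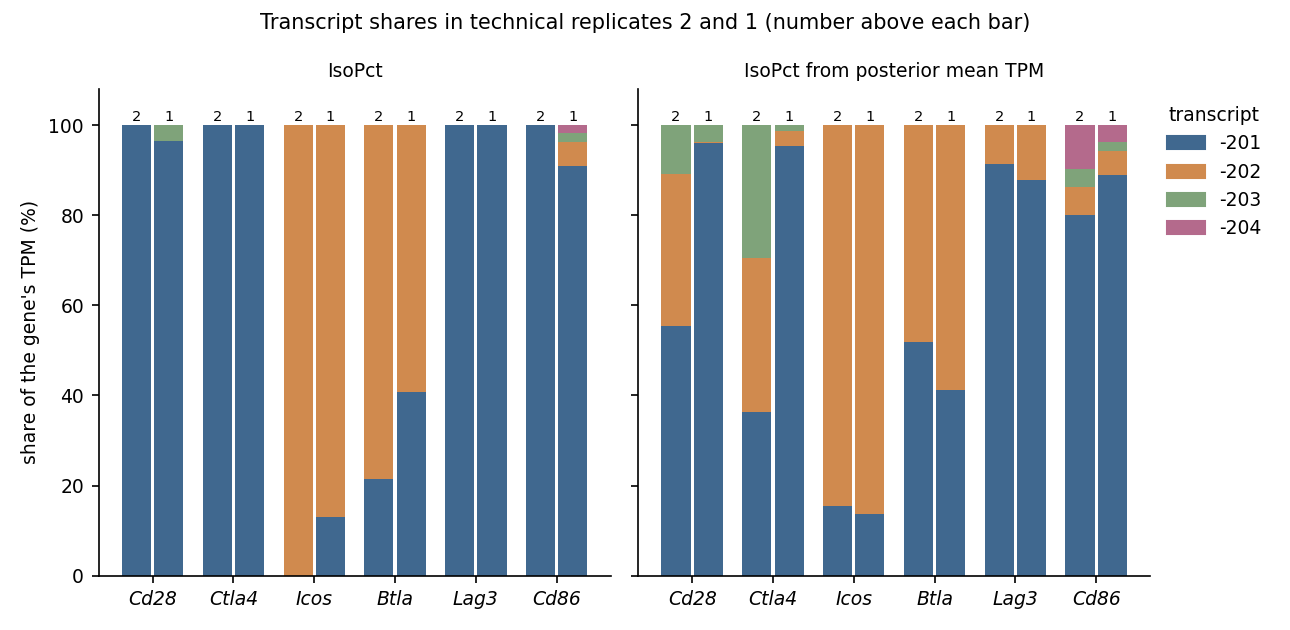
Share of each gene's TPM given to its transcripts in technical replicate 2 (left bar of each pair) and technical replicate 1 (right bar), from IsoPct (left panel) and from posterior mean TPM (right panel), for the 6 genes with several transcripts. Colours follow the transcript number. Btla-201 held 21.4% of the TPM in replicate 2 by IsoPct and 51.8% by posterior means.

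Other genes of these contacts were taken from a list of 20 ligands, counter-receptors and relatives, of which 17 passed the filter. Of these, 10 fell, 2 rose and 5 were not called, with a median log2 ratio of -1.67, beside 32.6% of all tested genes lower and 28.0% higher. With the GC trend removed, 7 were called lower and 0 higher, beside 30.1% of all genes lower and 2906 of 12437 higher. Of the 17, 6 passed the filter through their level in replicate 1 alone. These counts and the median therefore describe the genes and are not support for a difference. Icosl, the ICOS ligand, fell at -1.67 (-1.95 to -1.40), with 7.34 TPM in replicate 2 and 127.1 TPM in replicate 1. Tnfrsf14, the receptor that BTLA binds, had 0 counts in replicate 2 and 212 in replicate 1. Its ratio was -2.03 with the 0 valued at 3 counts, and its interval has an upper end of -1.72. Of the partners of TIGIT, Pvr fell at -1.92 (-3.14 to -0.93), on 8 counts in replicate 2. Nectin2 rose at 2.18 (1.73 to 2.61), while Nectin3 was at 0.05 and not called.

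Cd226 and Cd96, lymphocyte receptors that like TIGIT bind PVR, fell at -3.79 (-6.07 to -2.24) and -2.16 (-3.03 to -1.40). They had 3 and 14 counts in replicate 2. Havcr2, which encodes TIM-3, fell at -1.54, as did its ligand gene Lgals9 at -1.67, while Lgals3 rose at 1.34 (1.10 to 1.57). Cd160 fell at -2.34 (-4.62 to -0.77) on 3 counts in replicate 2, and Cd200r1 at -4.31 (-9.62 to -1.82) on 1 count. Cd48, with 16 counts there, fell at -4.02 (-4.83 to -3.32). Not called were Vsir at 0.50, Cd200 at 0.33, Cd244a at -0.26 and Pdcd1lg2. The pair that rose had 59.8% GC (Nectin2) and 55.4% GC (Lgals3), and with the GC trend removed neither was called, nor were Havcr2 at -0.68, Cd96 at -1.30 and Cd160 at -2.02. Cd276, Fgl1 and Vtcn1 were not tested, at 1, 0 and 0 counts in replicate 2 and 92, 15 and 2 in replicate 1.

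Of 18 genes that carry the signals of these receptors or move them to the surface, 9 fell, 5 rose and 4 were not called, beside 32.6% lower and 28.0% higher over all tested genes. Under total counts the split was 12 lower and 1 higher, beside 58.5% of all tested genes lower. Of the 18, 1 was below 1 TPM in replicate 2 and passed the filter through its level in replicate 1. Ptpn6, the phosphatase SHP-1 that inhibitory receptors recruit, rose at 2.41 (2.35 to 2.47), with 324.8 TPM in replicate 2 and 271.9 TPM in replicate 1. The adaptor Grb2 was not called at -0.21, with 26.3 TPM in replicate 2 and 202.7 TPM in replicate 1.

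The cells that carry these receptors were present in both libraries by their markers, and none of the 12 T cell, 9 B cell or 9 dendritic cell markers was at 0 in either. Beside the marker counts here and below, 32.6% of all tested genes were lower and 28.0% higher. The T cell markers came to 324.8 TPM in replicate 2, against 1077 TPM in replicate 1, with 4 of 12 higher and 2 lower, Trbc2 at 1.14 and Cd2 at 0.06. That split turned under total counts, to 1 higher and 6 lower, beside 58.5% of all tested genes lower. Removal of the GC trend also turned it, to 1 higher and 2 lower, beside 30.1% of all genes lower. Against the summed TPM of these markers, Cd28 came to 0.151% in replicate 2 and 2.53% in replicate 1, and Icos to 0.406% in replicate 2 and 1.86% in replicate 1. Lag3 went the other way, at 1.85% in replicate 2 and 0.461% in replicate 1. The B cell markers came to 1299 TPM in replicate 2, against 3920 TPM in replicate 1, with 3 of 9 higher and 6 lower, Cd79b at 1.94 and Cd79a at 2.50. Btla came to 0.556% of their sum in replicate 2 and 7.58% in replicate 1. The make-up of that sum differed between the libraries. Cd79a and Cd79b held 504.3 and 499.4 of 1299 TPM in replicate 2, and 495.5 and 737.7 of 3920 TPM in replicate 1. The level of Btla per B cell was not tested.

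The dendritic cell markers came to 73.7 TPM in replicate 2, against 335.1 TPM in replicate 1, with 2 of 9 higher and 4 lower, Ccr7 at 1.70 and Clec9a at -2.17. Under total counts the split was 0 higher and 6 lower, beside 58.5% of all tested genes lower. Cd80 and Cd86 came to 7.55% of the summed TPM of these markers in replicate 2 and 34.5% in replicate 1. The make-up of that sum also differed, with Ccr7 at 39.0 of 73.7 TPM in replicate 2 and 66.1 of 335.1 TPM in replicate 1. Of the 9 markers, 1 was below 1 TPM in replicate 2 and passed the filter through its level in replicate 1. Regulatory T cell markers, from cells rich in CTLA4, had 2 of 5 higher and 1 lower, with Tnfrsf18 and Tnfrsf4, themselves co-stimulatory receptors, higher at 3.74 and 3.18. The other members were Ikzf2, lower at -1.96, and Il2ra at -0.52 and Foxp3, the defining factor, at -1.44, neither of them called. With the GC trend removed Foxp3 was called lower at -2.76. Foxp3, Ikzf2 and Il2ra were below 1 TPM in replicate 2 and passed the filter through their level in replicate 1. Their calls are therefore not support for a difference. Ctla4 came to 0.706% of the sum of these 5 in replicate 2 and 27.7% in replicate 1. The make-up of that sum differed between the libraries. Tnfrsf18 held 27.1 of 39.68 TPM in replicate 2 and 8.24 of 36.77 TPM in replicate 1. Foxp3 had 0.35 TPM (7 counts) in replicate 2 and 4.92 TPM in replicate 1. For Ctla4 the levels were 0.28 TPM (3 counts) in replicate 2 and 10.2 TPM in replicate 1. The level of Ctla4 per regulatory T cell was not tested. Follicular helper T cell markers had 1 of 4 tested higher and 3 lower, led by Pou2af1 at -2.55 and Cxcr5 at -3.60, which B cells express as well, and Il21 was at 0 in replicate 2.

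NK cell markers had 1 of 6 higher and 3 lower. Gzma was higher at 1.03, while Ncr1 at -3.41, Klrb1c at -2.69 and Eomes at -1.68 were lower. Nkg7 at 0.35 and Klre1 at -0.12 were not called. The lower calls rest on 3, 7 and 9 counts in replicate 2. Of the 6, 2 (Ncr1 and Eomes) were below 1 TPM in replicate 2 and passed the filter through their level in replicate 1. The split is therefore not support for a difference. Red pulp macrophage markers had 3 of 8 higher and 2 lower, with C1qa at 5.16 and Vcam1 at -0.50. That split turned to 1 higher and 3 lower under total counts, beside 58.5% of all tested genes lower. With the GC trend removed it was 2 higher and 3 lower, beside 30.1% of all genes lower. C1qb, not called at 0.71, was then called lower at -1.42. All 8 erythroid markers were higher, 6 of them also under total counts, led by Hba-a2 at 8.76 and Hba-a1 at 5.50, near-identical copies whose split is uncertain. The part of cell make-up in the ratios of the checkpoint genes was not tested.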

How the data were processed

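Whole spleen RNA of 1 mouse was sequenced as 2 libraries, labelled technical replicates 2 and 1. Per the file headers, the deposited tables give an expected count per gene and transcript, TPM, FPKM and, for transcripts, IsoPct as a percent of the gene's TPM. Posterior means with interval bounds in TPM, and lengths in bases, are an other measure in the deposited tables. Per the text files deposited beside them, reads were aligned to the mm10 transcriptome with GENCODE M4. The aligner and quantifier are not given in the sources used here. Rows with no Ensembl identifier were left out; their share of counts was 0.00021% for replicate 2 and 1.09e-05% for replicate 1. Symbols were matched for 42462 of 43346 genes, and 101510 of 103639 transcripts were found in GENCODE M21 (GRCm38), the source of sequences and GC content.

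Counts were rounded and scaled with edgeR 4.0.16 (TMM factors of the 12467 tested genes) in R 4.3.3. Counting error was set by a Clopper-Pearson 95% interval (exact, conditional on the sum of both counts), and a gene was called when that interval lay wholly beyond 1.5-fold. A count of 0 was valued at 3 counts per library. PCR duplicates are not independent molecules, so intervals and floors cover counting error only. The GC trend was a lowess curve (span 0.3). Alternatives included DESeq2 1.42.0 size factors, total counts and deposited TPM. Other steps used scipy 1.17.1, pandas 2.3.3, statsmodels 0.14.6, numpy 2.4.6 and matplotlib 3.10.9 in Python 3.11.15. The genes and lists were chosen with earlier results of these data known. Named were all 10 genes, every tested gene of the ligand list and the 2 most abundant genes of each other list. The 3 untested genes of the ligand list were also named, after their values were seen. So were Il21, Foxp3, Ikzf2, Il2ra, Ncr1, Klrb1c, Eomes, Klre1 and C1qb. The coding sequence of Lag3 is not reported here.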

Additional observations from a re-analysis of the deposited data

How the results depend on the processing

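Cd28, Btla, Cd274 and Cd86 kept their direction under all 9 alternatives run for each, and their call under the 7 of these that give one, with log2 ratios of -5.81 to -2.07, -5.36 to -1.65, -6.33 to -2.99 and -4.65 to -1.04. Icos and Ctla4 lost their call with the GC trend removed, at -0.21 and -1.56. Tigit lost its call under DESeq2 size factors, at -0.85 with its 0 counts valued at 3. A 2-fold threshold left 5 members lower, without Icos and Tigit, beside 3136 of 12467 tested genes. A 99% interval left 6, without Tigit, beside 3625 of 12467 tested genes. Since 4 of the 9 passed the filter through replicate 1 alone, these counts are not support for a difference. With the GC trend removed, Lag3 stood at -0.30, near the all-gene median of -0.27, and Cd80 at 0.04. There 0 members were called higher, beside 2906 of 12437 genes. Called higher with TPM as deposited were also 0 members, and Lag3 was at 0.28. Cd80 was called lower under total counts and deposited TPM, at -1.99 and -3.19. Over all tested genes, 4060 were lower and 3492 higher under TMM, 7295 and 1820 under total counts, and 9639 and 884 with deposited TPM, so scaling moves the split of higher and lower calls. The order of the 10 genes correlated between the libraries at 0.52 by TPM and FPKM and at 0.43 by posterior mean TPM. TMM factors from all genes, an alternative chosen after seeing the data, changed no member's call. The causes of these changes were not tested. No library could be left out, since each side has 1, and no paired analysis was possible because each side is a single library. Depth limits replicate 2, where 5 members had 12 counts or fewer.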

Other observations

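Cd200, the ligand of an inhibitory receptor of myeloid cells, was noticed after its values were seen. Its gene TPM was higher in replicate 2 (195.0 TPM) than in replicate 1 (112.3 TPM), while its count ratio of 0.33 was not called. In replicate 2, 97.6% of its TPM lay in Cd200-210, an annotated transcript of 281 bases that encodes no protein, against 22.2% in replicate 1. The protein-coding Cd200-202 of 2347 bases held 4.71 TPM (61.2 counts) in replicate 2 and 68.9 TPM (2841 counts) in replicate 1. A gene level in TPM thus followed a short transcript with 163.8 counts in replicate 2 and 45.6 in replicate 1, whose effective length was 146.6 bases in replicate 2 and 95.7 in replicate 1.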
